A study of Chlamydomonas reinhardtii with 6 samples.

Results

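The response of an evolved cell group isolate of Chlamydomonas reinhardtii to a predator was described from a pair of RNA-seq libraries, 1 from chemostats with rotifers and 1 from control chemostats. These were 2 of the 6 libraries in the series, and they were chosen by the morphotype and treatment given in the sample records. The isolate came from a line of the wild-type strain cc1009 that had been kept with rotifers in a selection experiment, and it grew in groups with no single cells. In the rotifer treatment the predator Brachionus calyciflorus was added on day 10 of continuous culture and the treatment lasted 5 days in medium with 80 µM nitrogen. The low-nitrogen treatment lasted the same 5 days, but the inflow was switched to 40 µM nitrogen and no rotifers were added. The control treatment had 80 µM nitrogen and no rotifers. The other 3 libraries came from 1 isolate of single cells, most of them motile, from a line of the same strain kept without predators, under the same 3 treatments.

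Each library was made from RNA pooled by treatment, and the methods state that 3 replicate chemostats were run per condition. No condition therefore had a replicate library, and each morphotype was 1 isolate. No test was possible between rotifer and control, and all differences below describe these libraries. The intervals given with fold differences are exact 95% Clopper-Pearson intervals for the ratio of a pair of counts. They cover counting error only and leave out the variation between chemostats.

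C. reinhardtii is a unicellular green alga that swims with flagella and feeds itself by photosynthesis, taking up nitrogen from the medium as ammonium or nitrate. Rotifers are small filter feeders that swallow single algal cells more easily than groups, so that growth in groups is a defence against them. In such groups the daughter cells stay together after division. The study gives the extracellular matrix, or a cell septum that fails to form, as possible reasons. It proposes the matrix from its genomic changes and leaves the mechanism to further work. The low-nitrogen treatment sets a scarcer supply of this nutrient, without a predator, beside predation.

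The count table held 17741 genes, and the reads counted on them numbered 5453218 in the rotifer library of cell groups, 7475062 in low nitrogen and 7881116 in control. The libraries of single cells held 6275095, 8301199 and 9054895 counts in rotifer, low nitrogen and control. The rotifer library was thus the shallowest of each morphotype, and the methods name reads from sources other than the alga as a possible part of the rotifer libraries. The table holds genes of the alga alone, so such reads had no marker here, and their part in the results was not tested. Values are given as counts and as CPM, which are counts divided by library size after TMM scaling (a trimmed mean of the log ratios between libraries) and set to a total of 1e6. Differences are the log2 of CPM plus 0.5 in 1 library minus the same in another, and the pseudocount of 0.5 pulls the differences of weakly counted genes towards 0. A gene was compared if its counts summed to at least 30 over the 3 libraries of cell groups, which held for 13954 genes.

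The lowest genes in the rotifer library of cell groups stood next to each other on chromosome 9. A run of 6 consecutive compared genes, from Cre09.g410750 to Cre09.g411050, was at least 4-fold lower in rotifer than in control. The run spans 39.0 kb at positions 6978922 to 7017965 of the version 5.5 assembly. Summed over the run, 280.1 CPM were measured in rotifer, 5859.8 CPM in low nitrogen and 6369 CPM in control. The run thus held 0.0269% of all counts in rotifer, 0.654% in low nitrogen and 0.604% in control. The control level was 22.7 times that in rotifer and 1.09 times that in low nitrogen.

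Within the run, Cre09.g410750 (6978922 to 6984869) had 98 counts in rotifer, 6318 in low nitrogen and 5836 in control. This is 41.8-fold lower in rotifer than in control (interval 34.2 to 51.6), and on the log2 scale the difference was -5.35. Cre09.g410950 (6998940 to 7006736) had 123 counts in rotifer, 7220 in low nitrogen and 7278 in control, 41.5-fold lower in rotifer (interval 34.7 to 50.0). For both genes the low-nitrogen library stayed close to control, with log2 differences of -0.04 and -0.17. Cre09.g410850 (6991287 to 6995219) was the most counted gene of the run, with 445 counts in rotifer, 16685 in low nitrogen and 17871 in control. It was 28.2-fold lower in rotifer (interval 25.6 to 31.0). Cre09.g410900 (6995340 to 6997448), which follows it directly, had 295, 14891 and 12455 counts in rotifer, low nitrogen and control and was 29.6-fold lower in rotifer (interval 26.4 to 33.4). These neighbours therefore shared both the size of the difference and the control-like level in low nitrogen.

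Cre09.g411050 (7009624 to 7017965), the last gene of the run, had 42 counts in rotifer, 2043 in low nitrogen and 1355 in control. Its level was 22.6-fold lower in rotifer than in control (interval 16.7 to 31.6), and the low-nitrogen library lay 0.43 above control on the log2 scale. The gene least like the rest was Cre09.g410800, with 466 counts in rotifer, 1735 in low nitrogen and 2812 in control. It was 4.23-fold lower in rotifer (interval 3.84 to 4.68), and it was also lower in low nitrogen, by -0.85 on the log2 scale. Without Cre09.g410800, the other 5 genes ranged from -5.35 to -4.42 in rotifer against control and from -0.26 to 0.43 in low nitrogen against control.

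In cell groups the edges of the run were sharp. The compared gene just before it, Cre09.g410700, had 1807 counts in rotifer and 2666 in control, which is a log2 difference of -0.05 after scaling. The gene just after it, Cre09.g411100, had 16289 counts in rotifer and 23146 in control, a difference of 0.00. Over the 4 compared genes on either side, the differences between rotifer and control ran from -0.64 to 0.11, with a median of -0.03, against a median of -4.84 within the run.

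The same 6 genes were lower with rotifers in single cells too, by a smaller factor. Summed over the run, the single cell libraries held 2447 CPM in rotifer, 9573 CPM in low nitrogen and 10297 CPM in control, so that control was 4.21 times rotifer. The log2 differences between rotifer and control in single cells ran from -2.16 to -1.23. Over the 4 compared genes on either side they ran from -1.74 to 2.41, with a median of 0.26, so the ranges overlapped. Without Cre09.g410800, the other 5 genes of the run lay between -2.16 and -2.00, below all of these flanking genes. Cre09.g410750 had 1467 counts in rotifer and 11362 in control there, and Cre09.g410850 had 5770 in rotifer and 43535 in control. Again Cre09.g410800 differed from the others. In single cells it had 138 counts in rotifer, 3746 in low nitrogen and 577 in control, so that low nitrogen was 2.91 above control on the log2 scale. Whether the size of the rotifer difference in the run differs between the morphotypes was not tested, since each pair of libraries has no replicate. In C. reinhardtii, genes for the uptake and reduction of nitrate are known to lie in a cluster on chromosome 9. The tables used here pair no identifier of the run with a gene name, so no function is given to its members.

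**Figure D1:**
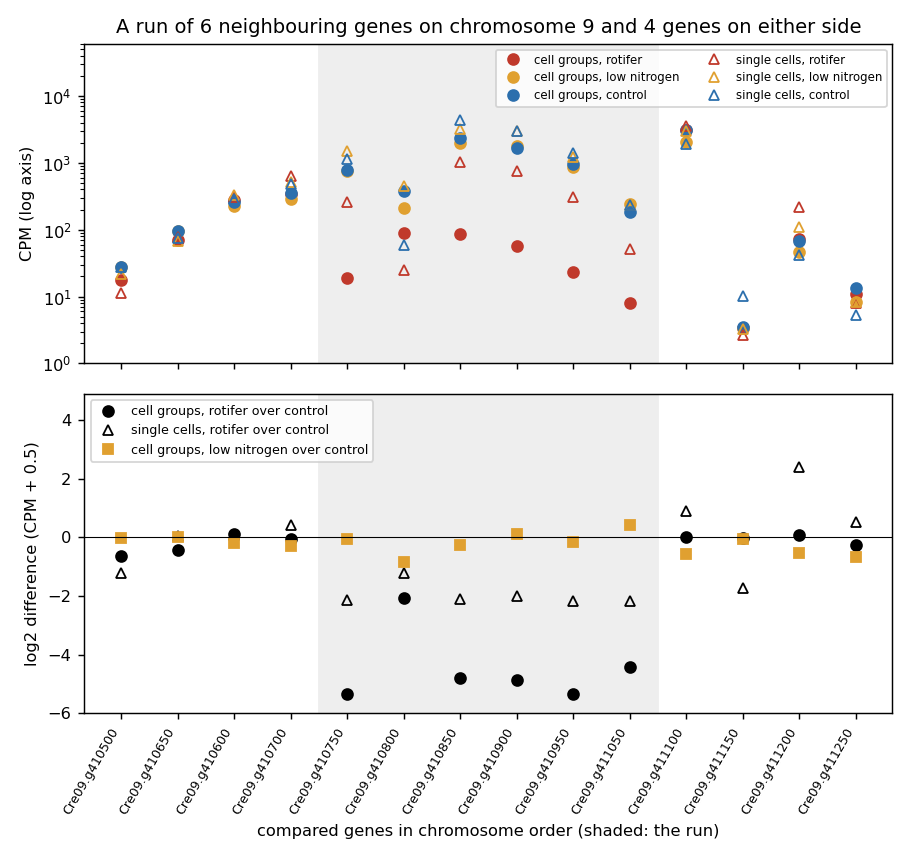
The upper panel plots the CPM (log axis) of the 6 genes of the chromosome 9 run (shaded) and of 4 compared genes on either side, with filled circles for cell groups and open triangles for single cells in rotifer, low nitrogen and control. The lower panel plots log2 differences of CPM plus 0.5, where 5 of the 6 genes lie between -5.35 and -4.42 for rotifer over control in cell groups and near 0 for low nitrogen over control.

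Outside the run, the lowest genes with at least 100 counts in the higher library were spread over 5 chromosomes together with those of the run. Cre02.g095087 (chromosome 2, 3308258 to 3313916) had 10 counts in rotifer, 132 in low nitrogen and 276 in control, and was 19.4-fold lower in rotifer than in control (interval 10.4 to 40.8). This gene was also lower in low nitrogen than in control, with a log2 difference of -1.20. On chromosome 16, Cre16.g658400 (2194002 to 2195908) had 10 counts in rotifer, 536 in low nitrogen and 261 in control, 18.3-fold lower in rotifer (interval 9.80 to 38.6). Cre16.g658850 (2235853 to 2239608), on the same chromosome but not adjacent, had 22 counts in rotifer, 1007 in low nitrogen and 496 in control, 15.8-fold lower in rotifer (interval 10.3 to 25.5). Both were higher in low nitrogen than in control, by 0.87 and 0.86 on the log2 scale, so the treatments stood on either side of control. Cre09.g403150 (chromosome 9, 659606 to 663815) had 18 counts in rotifer, 128 in low nitrogen and 251 in control, and was 9.79-fold lower in rotifer (interval 6.07 to 16.8). It lies far from the run described above, and low nitrogen was lower than control as well (-1.11).

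A pair of neighbours on chromosome 14 was also among the lowest. Cre14.g615350 (1125856 to 1128338) had 51 counts in rotifer, 420 in low nitrogen and 527 in control, 7.25-fold lower in rotifer (interval 5.43 to 9.87). Cre14.g615400 (1130388 to 1132606), the next compared gene, had 48 counts in rotifer, 132 in low nitrogen and 419 in control, 6.13-fold lower in rotifer (interval 4.54 to 8.44). The neighbours parted in low nitrogen, where Cre14.g615350 was -0.48 from control on the log2 scale and Cre14.g615400 was -1.79 from it. On chromosome 17, Cre17.g714150 (2299381 to 2307236) had 51 counts in rotifer, 660 in low nitrogen and 448 in control and was 6.16-fold lower in rotifer (interval 4.61 to 8.41). The gene after it, Cre17.g714200, had 102 counts in rotifer, 1410 in low nitrogen and 451 in control, and was -1.61 from control in rotifer but 1.48 above control in low nitrogen.

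Of the 12 lowest genes, 5 of which belong to the run, 3 were also at least 2-fold lower in low nitrogen than in control, against 4.37% of all compared genes, and 11 were at least 2-fold lower in rotifer than in low nitrogen, against 6.95%. The 12 were chosen for their low level against control, and both counts share a library with that choice, so nothing is read from them. In single cells, 11 of the 12 were at least 2-fold lower in rotifer than in control, against 14.9% of all compared genes. Cre02.g095087 had 110 counts in rotifer, 1153 in low nitrogen and 6144 in control in single cells, a rotifer difference of -4.95. Cre16.g658400 had 385, 3419 and 5738 counts in rotifer, low nitrogen and control there, a rotifer difference of -3.07. The exception was Cre09.g403150, with 202 counts in rotifer, 645 in low nitrogen and 330 in control in single cells, a rotifer difference of 0.11.

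The highest genes stood less far from control. The 12 highest with at least 100 counts in the rotifer library were between 2.79-fold and 4.73-fold higher than in control and came from 8 chromosomes. Cre07.g356450 (chromosome 7, 6206487 to 6220712) had 136 counts in rotifer, 61 in low nitrogen and 41 in control, 4.73-fold higher in rotifer (interval 3.31 to 6.88). Cre16.g659700 (chromosome 16, 2350939 to 2352908) had 717 counts in rotifer, 411 in low nitrogen and 224 in control, 4.56-fold higher in rotifer (interval 3.92 to 5.32). In low nitrogen the log2 differences from control were 0.38 and 0.71, so rotifer was the highest of the 3 libraries for both genes. Cre08.g365851 (chromosome 8, 1701443 to 1709354) had 477 counts in rotifer, 288 in low nitrogen and 189 in control and was 3.60-fold higher in rotifer (interval 3.03 to 4.28). Cre08.g363100 (chromosome 8, 1184863 to 1197841) had 511 counts in rotifer, 221 in low nitrogen and 232 in control, 3.14-fold higher in rotifer (interval 2.68 to 3.68). Cre07.g321750 (chromosome 7, 1278084 to 1281501) had 377 counts in rotifer, 164 in low nitrogen and 174 in control, 3.09-fold higher in rotifer (interval 2.57 to 3.72). Cre08.g363100 and Cre07.g321750 had nearly equal levels in low nitrogen and control, with log2 differences of -0.22 and -0.24.

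Low nitrogen lay between rotifer and control for most of the rest. Cre17.g741750 had 103 counts in rotifer, 71 in low nitrogen and 42 in control, Cre09.g397623 had 159, 107 and 68, and Cre14.g620702 had 300, 188 and 141 in the same order. Cre02.g089650 had 284 counts in rotifer, 178 in low nitrogen and 136 in control, Cre08.g360100 had 148, 102 and 73, and Cre02.g145950 had 174, 134 and 89. Their rotifer differences on the log2 scale ran from 1.44 for Cre02.g145950 to 1.72 for Cre17.g741750. Cre01.g055100 was the only 1 of the 12 at least 2-fold higher in low nitrogen as well, with 110 counts in rotifer, 174 in low nitrogen and 48 in control. The other 11 were at least 2-fold higher in rotifer than in low nitrogen, against 5.88% of all compared genes. The 12 were chosen for their difference from control, so nothing is read from that count. Cre09.g397702, which ranked among the genes most apart from both other libraries, had 153 counts in rotifer, 63 in low nitrogen and 78 in control, 2.80-fold higher in rotifer than in control (interval 2.11 to 3.72).

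In single cells, 3 of these 12 genes were at least 2-fold higher in rotifer than in control, and 3 were at least 2-fold lower, against 11.5% and 14.9% of all compared genes. Cre08.g365851 had 18 counts in rotifer, 4 in low nitrogen and 1 in control in single cells, and Cre07.g321750 had 41, 2 and 7. Both genes were thus weakly counted in single cells in every treatment, and much more counted in cell groups. Cre16.g659700 had 3701 counts in rotifer, 6784 in low nitrogen and 15047 in control in single cells, a rotifer difference of -1.20 against 2.17 in cell groups. Cre01.g055100 had 45 counts in rotifer, 35 in low nitrogen and 600 in control in single cells, a rotifer difference of -2.84 against 1.63 in cell groups.

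**Figure D2:**
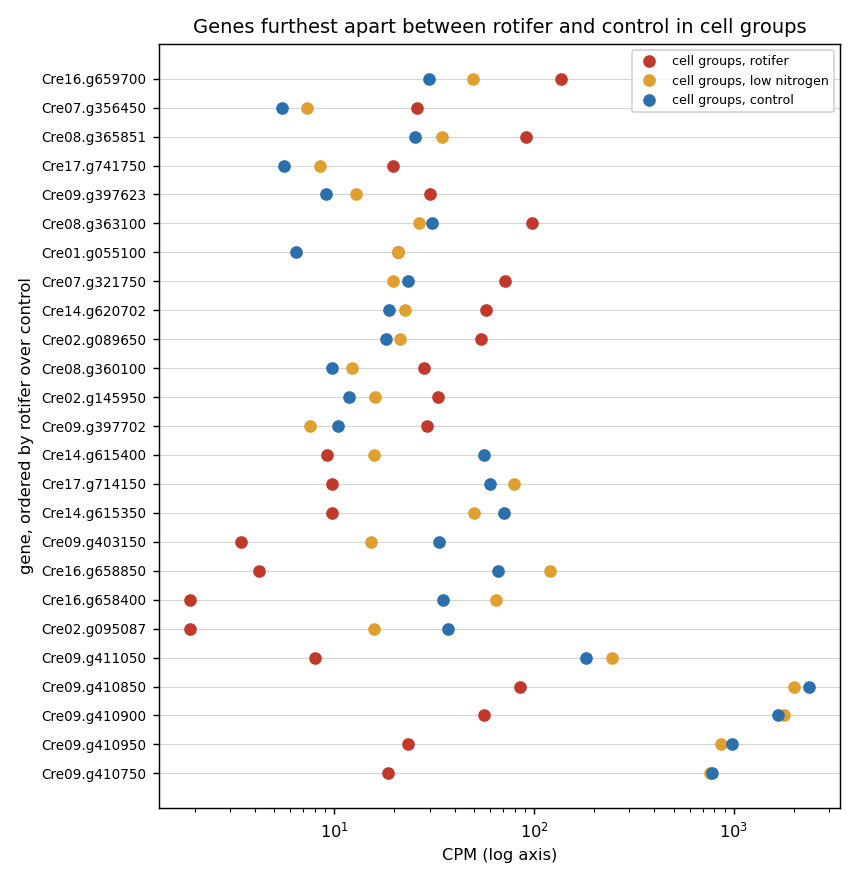
Level in CPM (log axis) in the rotifer, low nitrogen and control libraries of cell groups, with 1 point per library and no replicate. Shown are the 12 highest and 12 lowest genes in rotifer against control among those with at least 100 counts in the higher library, and Cre09.g397702. These highest genes differ by at most 4.73-fold between rotifer and control, while these lowest differ by 6.13-fold to 41.8-fold.

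Over all compared genes, 570 were at least 2-fold higher in rotifer than in control (4.08%) and 517 were at least 2-fold lower (3.71%). The median log2 difference was 0.00, the quartiles were -0.32 and 0.32, and the SD over genes was 0.57. At 2-fold the balance of the directions depended on the scaling, with 538 genes higher and 551 lower under DESeq2 size factors. The counts themselves depended on the processing. With a pseudocount of 2 CPM, 215 genes were higher and 273 lower, and from the authors' normalized values 25 were higher and 44 lower. At least 4-fold, 23 genes were higher (0.165%) and 49 were lower (0.351%), and at least 8-fold, 3 were higher (0.0215%) and 11 were lower (0.0788%). Among the genes at least 4-fold apart, 2 of the 23 higher genes and 21 of the 49 lower genes had 100 counts or more in rotifer or control. The run on chromosome 9 supplied 5 of the 11 genes at least 8-fold lower.

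Weakly counted genes made up much of the higher list. Of the 2430 genes with 30 to 100 counts summed over the 3 libraries, 13.6% were at least 2-fold higher in rotifer and 7.45% were lower. Of the 4493 genes with 300 to 1000 counts, 0.979% were higher and 2.49% were lower. Of the 223 genes with at least 10000 counts, 0.448% were higher and 1.79% were lower. The median summed count was 83.5 for the higher genes and 157 for the lower ones. At 300 counts or more, 60 of 7533 genes were at least 2-fold higher (0.796%) and 164 were at least 2-fold lower (2.18%). At 30 to 100 summed counts, a 2-fold difference can arise from counting error alone. The share of such differences in these libraries was not measured, and there was no replicate library.

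**Figure D3:**
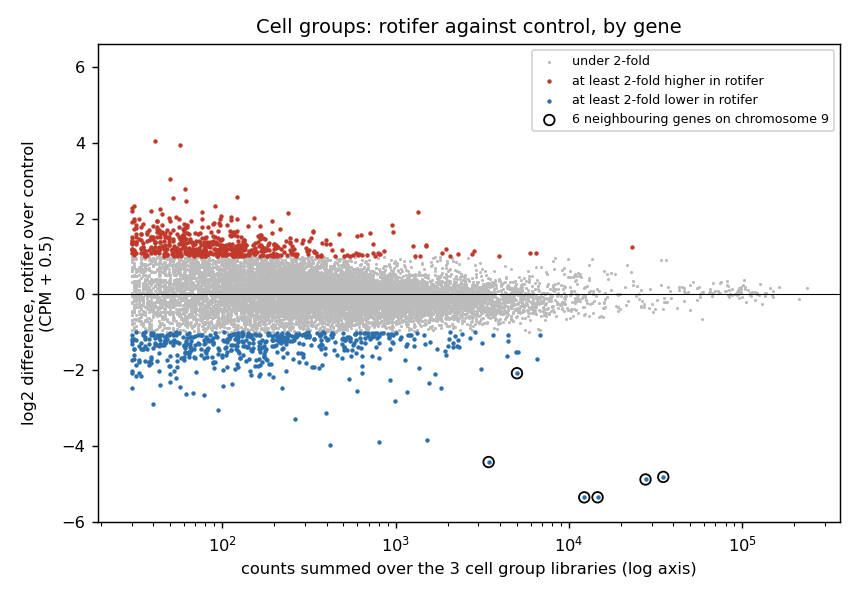
Log2 difference of rotifer over control in cell groups for the 13954 compared genes, against their counts summed over the 3 libraries of cell groups (log axis). Red points are at least 2-fold higher in rotifer and blue points at least 2-fold lower, and the 6 genes of the chromosome 9 run (black rings) lie between -5.35 and -2.08.

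The most counted genes differed little between rotifer and control. Of the 100 most counted genes, 0 were at least 2-fold higher in rotifer and 1 was at least 2-fold lower, and their median log2 difference was 0.06 with quartiles of -0.03 and 0.16. The same 100 genes had a median of -0.40 in low nitrogen against control. That median depends on the scaling, as the TMM factors were 1.12 in low nitrogen, 0.948 in control and 0.962 in rotifer. Some strongly counted genes did stand out, and the ones given here were chosen after their values were seen. Cre12.g548950 (chromosome 12) had 11036 counts in rotifer, 5455 in low nitrogen and 6610 in control, which is 2.38-fold higher in rotifer than in control (interval 2.31 to 2.45). In single cells it was also higher in rotifer, with 18945 counts in rotifer against 5961 in control and a log2 difference of 2.49. On the lower side, Cre11.g477550 had 762 counts in rotifer, 2218 in low nitrogen and 3529 in control (log2 difference -1.70). Cre15.g641400 had 596 counts in rotifer, 2062 in low nitrogen and 2430 in control (-1.51), and Cre04.g214150 had 425, 2068 and 1881 (-1.63). For Cre04.g214150 the low-nitrogen level was that of control, with a log2 difference of -0.02.

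The rotifer differences were set against the low-nitrogen library to part those found under both treatments from those found with rotifers. Both treatments are compared with the same control library, so a control value that is off by chance moves both differences the same way, and the counts of shared genes describe 3 values per gene and are no measure of a common response. A gene was called shared if low nitrogen was also at least 2-fold from control in the same direction. It was called apart if rotifer was at least 2-fold from low nitrogen too, in the direction in which it differed from control. Both of these differences contain the rotifer library, so a rotifer value off by chance moves them the same way. The counts of genes apart are thus no measure of a response particular to rotifers. In all, 919 genes were at least 2-fold higher in low nitrogen than in control (6.59%) and 610 were at least 2-fold lower (4.37%). Rotifer was at least 2-fold above low nitrogen for 821 genes (5.88%) and at least 2-fold below it for 970 (6.95%).

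Of the 570 genes higher in rotifer, 171 were shared with low nitrogen and 186 were apart from it (32.6%), of which 3 met both definitions, and 216 met neither (37.9%). Of the 517 genes lower in rotifer, 110 were shared (21.3%) and 253 were apart (48.9%), of which 4 met both definitions, and 158 met neither (30.6%). The larger class on the lower side was thus that of genes low in rotifer against both other libraries, to which all 6 genes of the chromosome 9 run belong. Low nitrogen was at least 2-fold from control in the opposite direction for 9 of the 570 higher genes (1.58%), against 4.37% of all compared genes. The same held for 42 of the 517 lower genes (8.12%), against 6.59%. All of these are among the genes apart. Both differences contain the control library, so nothing is read from these counts.

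Some genes of each kind are given here, chosen after their values were seen. Among the shared genes, Cre01.g046650 on chromosome 1 had 66 counts in rotifer, 18 in low nitrogen and 457 in control, with log2 differences from control of -2.24 in rotifer and -4.54 in low nitrogen. Cre17.g739650 had 46 counts in rotifer, 38 in low nitrogen and 256 in control, and Cre16.g648950 had 26, 17 and 142. In these genes low nitrogen was further below control than rotifer was. On the higher side, Cre13.g582713 had 87 counts in rotifer, 345 in low nitrogen and 39 in control, and Cre09.g397512 had 66, 150 and 31. Here too low nitrogen lay further from control.

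The genes that went opposite ways included Cre06.g293100 on chromosome 6, with 40 counts in rotifer, 1383 in low nitrogen and 257 in control. Its log2 differences from control were -2.10 in rotifer and 2.25 in low nitrogen. Cre12.g488450 on chromosome 12 had 8 counts in rotifer, 746 in low nitrogen and 45 in control, and Cre05.g235950 had 12, 417 and 63. For these genes control lay between the treatments. In the other direction, Cre12.g554100 had 834 counts in rotifer, 175 in low nitrogen and 482 in control, and Cre03.g143967 had 353, 88 and 245. These were the only 2 of the 9 higher genes of this kind with at least 100 counts in 1 of the 3 libraries. Of the 42 lower genes of this kind, 22 had that many.

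**Figure D4:**
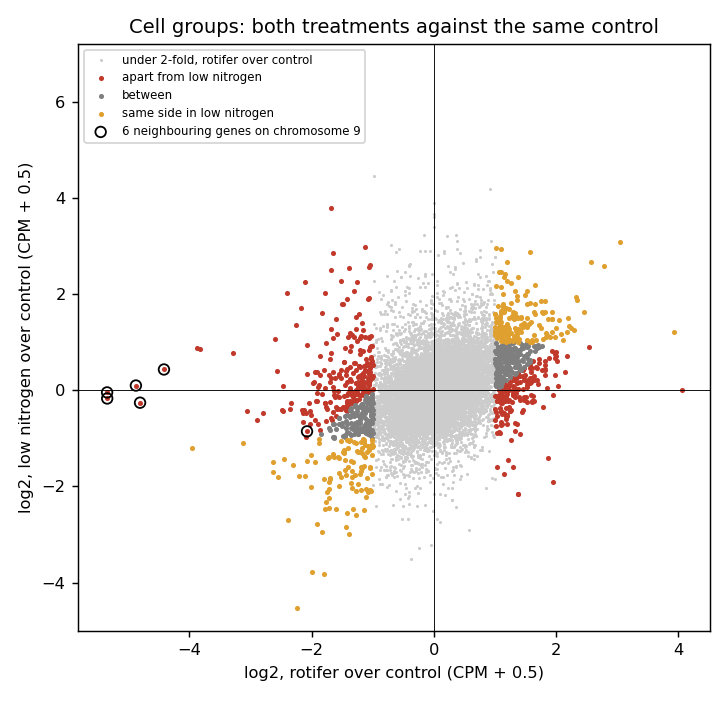
Log2 difference from the shared control library of cell groups, with rotifer on the horizontal axis and low nitrogen on the vertical axis, for the 13954 compared genes. Yellow points are shared, at least 2-fold from control on the same side in low nitrogen, and include the genes that met both definitions. Red points are the other genes apart from low nitrogen, and dark grey points meet neither definition. Of the 6 genes of the chromosome 9 run (rings), 5 lie far to the left at low-nitrogen differences of -0.26 to 0.43.

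The single cell libraries share none of these libraries and give a second pair of rotifer and control, from another isolate. Of the 517 genes at least 2-fold lower in rotifer in cell groups, 233 (45.1%) were also at least 2-fold lower in rotifer in single cells, against 14.9% of all compared genes. In the other direction, 40 of them (7.74%) were at least 2-fold higher in single cells, against 11.5% of all compared genes. Their median log2 difference in single cells was -0.83, against -0.02 over all compared genes. The genes lower in rotifer thus leaned the same way in both isolates. For the 164 lower genes with at least 300 counts, 94 (57.3%) were at least 2-fold lower in single cells, against 11.2% of all genes at that level.

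For the genes higher in rotifer the single cell libraries gave another picture. Of the 570 genes, 78 (13.7%) were at least 2-fold higher in rotifer in single cells, against 11.5% of all compared genes, and 162 (28.4%) were at least 2-fold lower, against 14.9%. Their median in single cells was -0.31. Of the 60 higher genes with at least 300 counts, 14 (23.3%) were at least 2-fold higher in single cells, against 11.9% at that level, and 23 (38.3%) were at least 2-fold lower, against 11.2%. The counts within the classes of the low-nitrogen comparison are given as a description. Of all 186 higher genes apart from low nitrogen, 20 (10.8%) were at least 2-fold higher in single cells and 52 (28.0%) were lower. Of the 171 shared genes, 30 (17.5%) were higher and 56 (32.7%) were lower. The classes differed more at 300 counts or more, where they are small. There, 8 of the 23 genes apart (34.8%) were at least 2-fold higher in single cells and 4 (17.4%) were lower. Of the 17 shared genes at that level, 3 (17.6%) were higher and 11 (64.7%) were lower. On the lower side at 300 counts or more, 56 of the 85 genes apart (65.9%) and 17 of the 26 shared genes (65.4%) were lower in single cells. In bulk RNA such as this, fewer cells of a state and less RNA per cell cannot be told apart.

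**Figure D5:**
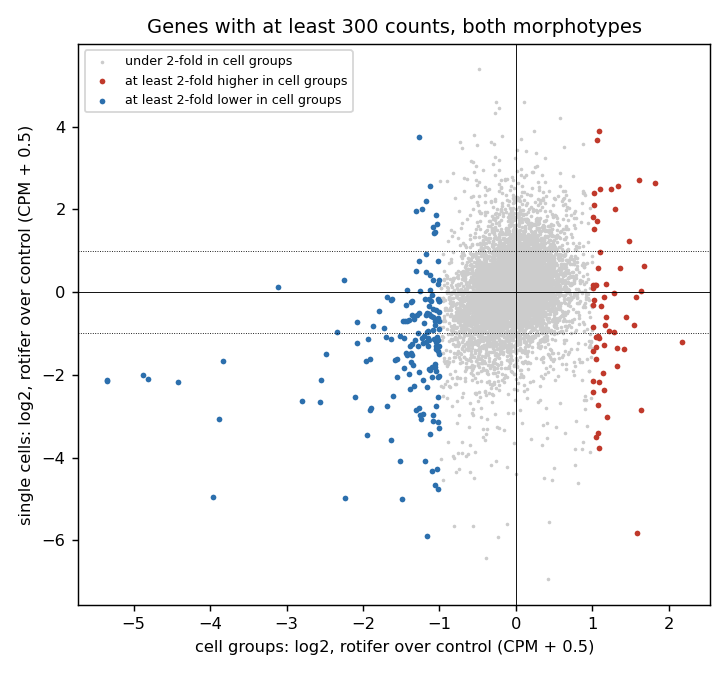
Log2 difference of rotifer over control in single cells (vertical axis) against that in cell groups (horizontal axis) for the 7533 genes with at least 300 counts in cell groups, with dotted lines at 2-fold in single cells. Of the 164 genes lower in cell groups (blue), 94 lie below the lower dotted line, and of the 60 higher genes (red), 14 lie above the upper line and 23 below the lower one.

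The genes with a role given in the study's text were named there for variants shared by its cell group isolates, in or beside the genes. The study reported no significant difference in their expression between single cells and cell groups. Among these genes, the one that differed most between rotifer and control in cell groups was Cre01.g049826, which encodes a pherophorin with the DUF3707 domain. Pherophorins are glycoproteins of the extracellular matrix of green algae. Cre01.g049826 (chromosome 1, 6879928 to 6923528) had 1633 counts in rotifer, 1282 in low nitrogen and 1383 in control, 1.68-fold higher in rotifer (interval 1.57 to 1.81) and short of the 2-fold used for calls. The low-nitrogen library was below control, with a log2 difference of -0.27, and the rotifer difference in single cells was 1.19. A second gene of the DUF3707 family, Cre06.g290676, and the glycoprotein gene Cre10.g431050 were too weakly counted to be compared. Cre06.g290676 had 5 counts in rotifer, 12 in low nitrogen and 5 in control, and Cre10.g431050 had 5, 11 and 6.

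The other genes of that kind stayed near control. Cre12.g522650, linked to the regulation of genes for extracellular matrix proteins, had 314 counts in rotifer, 454 in low nitrogen and 440 in control, a rotifer difference of 0.02. Cre12.g491600, associated with nutrient uptake, had 142 counts in rotifer, 292 in low nitrogen and 233 in control (-0.20). Cre06.g266300, associated with the viscosity of the cytosol, had 141 counts in rotifer, 302 in low nitrogen and 218 in control (-0.12). Cre10.g452800, linked to the response to CO2 stress, had 110 counts in rotifer, 297 in low nitrogen and 150 in control (0.06). The counting intervals of the fold between rotifer and control included 1 for these 4 genes. In single cells Cre10.g452800 was 3.70 higher in rotifer on the log2 scale, with 1411 counts in rotifer against 187 in control. A list of 174 genes that the study marked as shared with an earlier time course of multicellular growth was chosen with these libraries, so it is no independent evidence of a direction. Of its 166 compared members, 2 were at least 2-fold higher in rotifer (1.20%) and 7 were at least 2-fold lower (4.22%), against 4.08% and 3.71% of all compared genes, and the median was -0.07 against 0.00.

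Genes at least 2-fold apart were spread over all chromosomes. The share of higher genes ran from 2.95% on chromosome 2 to 5.77% on chromosome 11, and that of lower genes from 2.03% on chromosome 8 to 6.73% on chromosome 4. The median gene length was 4911 bp for higher genes, 4502 bp for lower genes and 4737 bp for all compared genes. The next compared gene along the chromosome was also at least 2-fold lower for 39 of 512 lower genes (7.62%, against 3.70% of all genes) and also higher for 30 of 564 higher genes (5.32%, against 4.07%). Apart from the run on chromosome 9, there were 4 runs of 3 or more neighbours, each with 3 members, and their highest count in rotifer or control ran from 50 to 558. The other run of lower genes, Cre06.g311300 to Cre06.g311400 on chromosome 6, included Cre06.g311350, which had 159 counts in rotifer, 327 in low nitrogen and 483 in control. The best counted of the 3 runs of higher genes, Cre04.g218450 to Cre04.g218526 on chromosome 4, included Cre04.g218500 and Cre04.g218526. Cre04.g218500 had 558 counts in rotifer, 609 in low nitrogen and 324 in control, and Cre04.g218526 had 28, 0 and 13 and no count in any library of single cells.

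A few of the 17741 genes in the count table had at least 15 counts in 1 library of the pair and 0 in the other. Genes short of the minimum of 30 summed counts were included here, so some of them are not among the compared genes. With a floor of 3 counts per library, 7 genes at 0 in rotifer and with at least 15 counts in control were at least 3.51-fold to at least 5.61-fold lower. The most counted of them in the control library was Cre03.g205100, with 0 counts in rotifer, 16 in low nitrogen and 24 in control. At 0 in control and with at least 15 counts in rotifer were 4 genes, at least 7.60-fold to at least 19.5-fold higher in rotifer. Cre22.g754047 had 41 counts in rotifer and 0 in low nitrogen and control, and no more than 2 counts in any library of single cells. Cre13.g582734, which is short of that minimum, had 17 counts in rotifer, 1 in low nitrogen and 0 in control, and 0 in each library of single cells.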

How the data were processed

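Reads were checked with FastQC, aligned by HISAT2 against the Chlamydomonas genome (version 5.0) and assigned to genes by HTSeq, and the authors deposited the resulting raw counts. Tool versions and the strand setting are not given in the sources used here, so overlapping and antisense genes may share reads. A deposited table of DESeq2-normalized log2 values served for 1 alternative, and another deposited table, with fold changes and p-values of the authors' own comparisons, was not used. The methods give 18 chemostats and the sample records 9, which alters no library.

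Counts were scaled by TMM factors over the 6 libraries (edgeR 4.0.16 in R 4.3.3, trimming 30% of M and 5% of A values) and compared as log2(CPM + 0.5) in Python 3.11.15 with pandas 2.3.3, numpy 2.4.6 and scipy 1.17.1. A floor of 3 counts was worth 0.572 CPM in the rotifer library of cell groups and 0.401 CPM in the control library. The computation was tested on simulated data. The genes named by fold were the 12 highest and 12 lowest with at least 100 counts in the higher library, the 6 per direction most apart from low nitrogen, and those with a role in the study's text. In the table, 17738 of 17741 genes were found in the RefSeq gene table of the version 5.5 assembly, which gives positions but no names. Lists fixed by gene name, and marker genes of the alga, could therefore not be matched and were not analysed here. All genes, lists and rules were chosen with earlier results of these data known. Alternatives covered the scaling, the pseudocount, the filter, the fold and the authors' normalized values.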

Additional observations from a re-analysis of the deposited data

Results flagged for a closer look

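For 3 genes among the highest in cell groups, the libraries of single cells went the other way. The rotifer library lay at least 2-fold above control in cell groups and at least 2-fold below control in single cells. This contrast was not tested, since each side has 1 library and each morphotype is 1 isolate. The log2 difference between rotifer and control in cell groups minus that in single cells was 4.47 for Cre01.g055100, 3.37 for Cre16.g659700 and 2.88 for Cre17.g741750. In cell groups the counts of Cre17.g741750 were 103 in rotifer and 42 in control. In single cells the control library was the highest of the 3 for each of these genes, at 60.9 CPM for Cre01.g055100, 1527 CPM for Cre16.g659700 and 19.1 CPM for Cre17.g741750.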

How the results depend on the processing

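With a pseudocount of 2 CPM, 215 genes were at least 2-fold higher in rotifer and 273 lower, of which 40 and 53 were shared with low nitrogen and 59 and 114 were apart from it. With at least 300 counts, 60 genes were higher and 164 lower, and from the authors' normalized values 25 were higher and 44 lower (the cause was not tested). At 4-fold, 3 higher genes were shared and 2 apart, and 3 lower genes were shared and 25 apart. The other alternatives stayed within 1.5 times of the counts given, namely library totals, DESeq2 size factors (DESeq2 1.42.0), a pseudocount of 0.1 CPM, no filter and a filter over all 6 libraries. The order of the classes among the higher genes still depended on the scaling. Under TMM, 171 were shared and 186 apart, whereas under library totals 237 were shared and 143 apart. Among the lower genes, 83 were shared and 292 apart under library totals. Which direction held more genes depended on the scaling, with 52.4% of called genes higher under TMM, 55.6% under library totals and 49.4% under DESeq2 size factors. Among the named genes, none that was at least 2-fold apart changed sign under another scaling or the larger pseudocount, and Cre12.g522650, near 0, was 0.02 under TMM and -0.0017 under DESeq2 size factors. The larger pseudocount moved Cre02.g095087 to -3.32 and Cre16.g658400 to -3.24. No paired analysis was possible because, within cell groups, each condition has 1 library, and for the same reason no library was left out. A fit of both morphotypes together addresses another comparison and was not run. The alternatives for lists of named gene families were not run, because the lists could not be matched. Depth limits the genes under about 100 counts most, since the rotifer library is the shallowest of the cell groups.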

Other observations

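Cre10.g452800, at about the same level in rotifer and control in cell groups, was among the genes that stood far apart in single cells, where it had 253.2 CPM in rotifer, 108.4 CPM in low nitrogen and 19.0 CPM in control. Cre13.g582713, higher under both treatments in cell groups, had 8 counts in rotifer, 60 in low nitrogen and 1065 in control in single cells. Cre11.g468359 had 834 counts in rotifer, 1379 in low nitrogen and 563 in control in cell groups, and 370, 642 and 7010 counts in rotifer, low nitrogen and control in single cells. For both of these genes the treatments lay above control in cell groups and below it in single cells. The genes were chosen after their values were seen. These values are descriptions of 6 libraries without replicates, and no explanation was tested.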
